A study of Mus musculus with 18 samples.

Results

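Oligodendrocytes arise from dividing precursors, marked by the growth factor receptor Pdgfra and the proteoglycan Cspg4 (NG2). Precursors that commit to differentiation lose these markers and for a short time make the receptor Gpr17, the secreted ligand Bmp4 and the choline phosphodiesterase Enpp6, before they switch on the myelin genes Mag and Mog. Cells in this transition are few in the adult brain and are used as a sign of ongoing oligodendrocyte formation.

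Committed and newly formed oligodendrocytes were taken here as nuclei with at least 3 unique molecular identifiers (UMIs, counted transcript molecules) of Enpp6, Gpr17 and Bmp4 together, and at least 2 times as many of these as of 8 genes of other cell types (Slc17a7, Gad1, Gad2, Aqp4, Gja1, Csf1r, Inpp5d and Flt1). The measured counts of the 3 rule genes thus chose the members, and their levels in the members are given as a description. Of 138000 nuclei with at least 200 detected genes and at most 10% mitochondrial UMIs, 377 were members, 238 from the hippocampus (Hip) and 139 from the prefrontal cortex (PFC).

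The study profiled the Hip and PFC of the same 9 Kun Ming mice, 3 per group, at 8 weeks of age by single-nucleus RNA-seq, 1 library per mouse and region. Germ-free (GF) mice had no microbiota, specific pathogen free (SPF) mice had a normal one, and colonized germ-free (CGF) mice were GF mice co-housed with SPF mice for 4 weeks from the age of 4 weeks. GF and CGF mice lived in isolators and SPF mice were raised separately, so in comparisons with SPF mice housing and microbiota cannot be told apart. The study names the unfamiliar SPF cage mate of the CGF mice as a possible transient stress. In comparisons with CGF mice co-housing and colonization cannot be told apart.

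The libraries were not of equal depth. The median nucleus had 4678 to 7579 UMIs in the 9 Hip libraries and 6795.5 to 7426.5 in the 3 GF PFC libraries, but 2353 to 3208 in the 6 SPF and CGF PFC libraries. A rule that asks for 3 UMIs admits fewer nuclei where depth is lower, and depth and microbiota cannot be told apart in PFC. Of 135606 kept barcodes 2366 occurred in 2 or more libraries. For 13 of the 377 members the barcode also occurred in another library, and 0 barcodes were members in 2 libraries.

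The members were spread over all 18 libraries. In Hip the GF mice 5, 6 and 7 gave 31, 24 and 33 members, the SPF mice 30, 31 and 32 gave 30, 24 and 28, and the CGF mice 17, 18 and 19 gave 24, 25 and 19. In PFC the same mice gave 35, 26 and 43 members in GF, 6, 4 and 11 in SPF, and 3, 6 and 5 in CGF. A median member held 3675 UMIs.

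**Figure D1:**
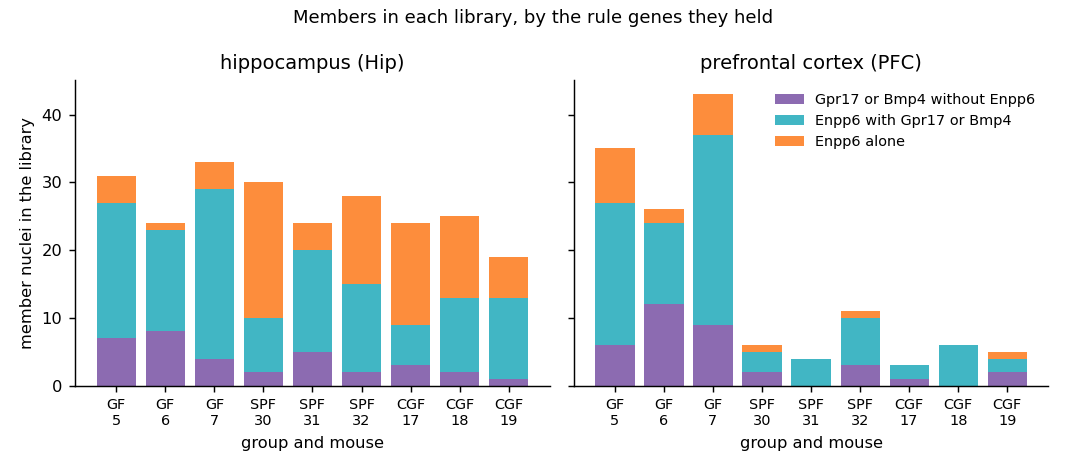
Number of member nuclei in each of the 18 libraries (bars, by mouse and region), divided by the rule genes each nucleus held. The Hip libraries held 19 to 33 members and the GF PFC libraries 26 to 43, the SPF and CGF PFC libraries 3 to 11.

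Enpp6 carried most of the signal. It gave 1132 of the rule-gene UMIs (54.6%) and was detected in 308 members (81.7%). Gpr17 gave 495 UMIs in 220 members (58.4%) and Bmp4 gave 447 UMIs in 199 members (52.8%). By the genes they held, 210 members had Enpp6 with Gpr17 or Bmp4, 69 had Gpr17 or Bmp4 without Enpp6, and 98 had Enpp6 alone. All 3 genes were found in 114 nuclei.

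In cells that should lack the rule genes, few nuclei held a UMI of them. Of 2599 microglia nuclei (3 or more UMIs of Csf1r and Inpp5d, median 1783 UMIs) 1.15% held an Enpp6 UMI, 1.12% a Gpr17 UMI and 0.423% a Bmp4 UMI. Of 26245 excitatory neurons (3 or more UMIs of Slc17a7, median 8850 UMIs) the shares were 1.07%, 1.10% and 0.408%. The genes were not at the same level in the neighbouring stages. Of 1236 precursor nuclei (3 or more UMIs of Pdgfra and Cspg4, median 3322 UMIs) 20.5% held Gpr17 and 0.647% Enpp6, while of 4253 mature nuclei (3 or more UMIs of Mog and Mag, median 2357 UMIs) 17.7% held Enpp6 and 2.12% Gpr17.

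The label was checked against Olig1, Olig2 and Sox10, transcription factors of the whole lineage that the rule did not use. A UMI of at least 1 of them was found in 281 members (74.5%), compared with 74.1% of precursor nuclei, 53.4% of mature nuclei, 7.16% of microglia nuclei and 7.21% of excitatory neurons. Of the 114 nuclei with all 3 rule genes 88.6% had such a UMI. In Hip 85.9% ± 8.82 of GF, 66.5% ± 9.24 of SPF and 69.6% ± 10.2 of CGF members had one (SD, n = 3, exact permutation p = 0.101, adjusted over 6 measures p = 0.193). In PFC 87.0% ± 6.81 of GF, 48.2% ± 23.2 of SPF and 28.9% ± 7.70 of CGF members held such a UMI (SD, n = 3, exact permutation p = 0.0107, adjusted over 6 measures p = 0.0429), at median depths of 3998, 1642 and 1358 UMIs. The label held least for the 15 nuclei with Bmp4 alone, of which 13.3% had one at a median depth of 2428 UMIs. Of the 28 nuclei with Gpr17 alone, 75% held Pdgfra or Cspg4. Of the 98 nuclei with Enpp6 alone, 94.9% held Mog or Mag.

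The threshold passed through a continuous range. The 124 members with exactly 3 rule-gene UMIs had a median depth of 2815.5 UMIs and 53.2% of them held Olig1, Olig2 or Sox10. The 394 nuclei just outside, with 2 rule-gene UMIs, had a median depth of 2655.5 UMIs and a share of 55.3%. Among the 185 members with 5 or more rule-gene UMIs the share was 89.2%. A further 120 nuclei had enough rule-gene UMIs but were refused for genes of other cell types, and 74.2% of these held Slc17a7, the vesicular transporter of excitatory neurons. The doublet score marked 31.7% of the refused nuclei as likely doublets and 38 of the members (10.1%), which stayed in unless stated.

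Members lay between precursors and mature cells. To place them, the UMIs of 23 myelin and mature genes were taken in percent of these plus 13 precursor genes, with Pdgfra, Cspg4, Mog and Mag left out. This maturation index had a median of 3.13 in precursor nuclei (quartiles 1.86 and 4.91), 25.8 in members (11.4 and 63.3) and 93.5 in mature nuclei (88.2 and 97.1). The nuclei with Gpr17 or Bmp4 without Enpp6 had a median of 5.36, those with Enpp6 and Gpr17 or Bmp4 20.5, and those with Enpp6 alone 88.3. The members therefore covered almost the whole range, and the nuclei with Enpp6 alone lay next to the mature cells. The rule genes are themselves stage genes, and the neighbouring classes were chosen by stage genes with members left out. These levels are therefore a description with no test.

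**Figure D2:**
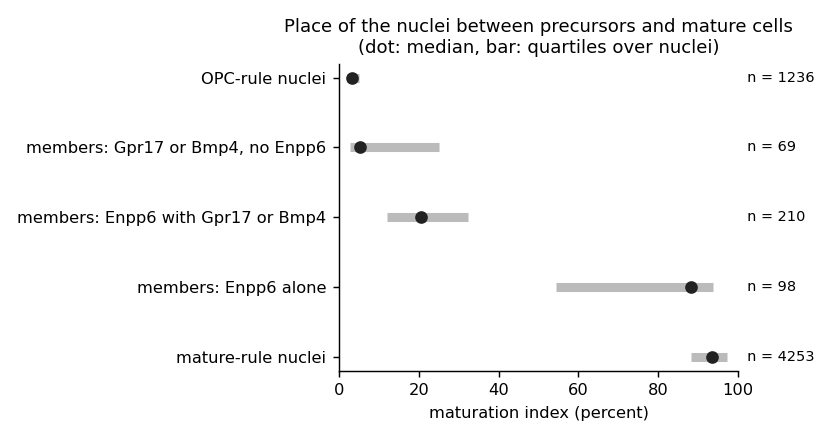
Maturation index (percent, x axis) of the precursor nuclei, the members by the rule genes they held, and the mature nuclei, as the median (dot) and quartiles (bar) over nuclei. The medians run from 3.13 in precursors over 5.36, 20.5 and 88.3 in the members to 93.5 in mature nuclei.

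Most precursor genes were lower in the members than in precursors. Levels were computed as CPM, the UMIs of a gene per 1000000 UMIs of the summed nuclei of a class, and are compared between classes for the same gene. Vcan, a matrix proteoglycan, stood at 882 CPM in precursor nuclei, 741 in nuclei with Gpr17 or Bmp4 without Enpp6, 663 in those with Enpp6 and Gpr17 or Bmp4, 97.1 in those with Enpp6 alone and 10.7 in mature nuclei. Ptprz1, a receptor phosphatase, went through 2021, 1336, 398, 133 and 87.7 CPM in the same order. Both were lower at every step, and most of the difference in Ptprz1 came before that in Vcan. Of 15 precursor genes, 14 had a level in the members between those of precursors and mature cells. The exception was Tnr (tenascin-R), at 3821 CPM in precursors, 7037 in members and 331 in mature nuclei. Sox6, a repressor of differentiation, was held at 1633 CPM in precursors, 1670.3 in nuclei without Enpp6 and 1939 in nuclei with Enpp6 and Gpr17 or Bmp4, and then stood at 428 with Enpp6 alone and 36.5 in mature nuclei.

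Genes of cell division were low. Top2a, the topoisomerase of dividing cells, gave 0 UMIs in the members, which allows up to 1.83 CPM (3 counts, counting error only), against 31.95 CPM in precursor nuclei. The 14 genes of the cell cycle list summed to 0.359 UMIs per 10000 in members, 1.42 in precursors and 0.410 in mature nuclei.

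Most newly formed genes were highest in the members. Of 17 newly formed genes with at least 50 UMIs in the members, 16 were higher there than in both precursor and mature nuclei, where 29.9% of all 5751 genes of that depth were. Fyn, a Src family kinase that acts in myelination, was at 307 CPM in precursors, 1140.2 in nuclei without Enpp6, 3683 with Enpp6 and Gpr17 or Bmp4, 1373 with Enpp6 alone and 167 in mature nuclei. Bcas1, a marker of oligodendrocytes at the start of myelination, followed the same course through 447, 1202, 4309, 1593 and 594 CPM. Both peaked where Enpp6 occurred with Gpr17 or Bmp4. The exception on the list was Synj2, a phosphoinositide phosphatase, at 17.4 CPM in precursors, 53.0 in members and 293 in mature nuclei.

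Other newly formed genes had the peak of their summed CPM later. Tcf7l2, a transcription factor at the end of the Wnt pathway, was at 170.3 CPM in precursors, 272 in nuclei without Enpp6, 1185 with Enpp6 and Gpr17 or Bmp4, 1519.8 with Enpp6 alone and 127 in mature nuclei. It was detected in 87.1% of nuclei with Enpp6 and Gpr17 or Bmp4 but in 44.9% of those with Enpp6 alone. Its higher sum in the nuclei with Enpp6 alone thus came from a smaller part of them. Rras2, a small GTPase, stood at 24.97, 18.2, 123, 381 and 64.7 CPM and Tmem2, a cell surface hyaluronidase, at 21.2, 10.9, 66.8, 324 and 39.4. For Rras2 and Tmem2 the nuclei with Enpp6 alone were thus well above the mature cells, in genes the rule did not use. Itpr2, a calcium channel of the endoplasmic reticulum, was at 726 CPM in members, 364 in precursors and 59.6 in mature nuclei. Casr was too low to place, at 4.26 CPM in members.

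Of 7 committed genes with 50 UMIs, 5 were highest in the members. Neu4, a sialidase, was at 118 CPM in precursors, 313 in nuclei with Enpp6 and Gpr17 or Bmp4, 40.2 with Enpp6 alone and 2.53 in mature nuclei. Sox4, a transcription factor of immature cells, ran through 59.5, 188, 102 and 18.2 CPM in the same order. In the nuclei with Enpp6 alone Neu4 was below its precursor level and Sox4 above it. Brinp3 and Elavl4 were not highest in the members.

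Myelin genes were higher in the members than in precursors. Of 18 myelin and mature genes with 50 UMIs, 17 lay between precursors and mature cells and Gjc3, a glial connexin, was highest in members (135, 456 and 328 CPM). Mbp (myelin basic protein) stood at 75.3 CPM in precursors, 283 in nuclei without Enpp6, 1848 with Enpp6 and Gpr17 or Bmp4, 3579 with Enpp6 alone and 2991 in mature nuclei. Mobp, another myelin protein, stood at 22.4, 65.4, 119, 627 and 1125 CPM in the same order. In nuclei with Enpp6 alone Mbp was thus above the mature level and Mobp below it. Opalin, a late surface protein, was at 71.0 CPM in nuclei with Enpp6 alone and 241 in mature nuclei.

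The transcription factors of differentiation did not share 1 order. Myrf, which switches on myelin genes, was at 7.83 CPM in precursors, 32.7, 89.0 and 156 in the 3 sets of members and 122 in mature nuclei. St18, a zinc finger factor, stood at 47.6, 334, 1879, 3601 and 3278 CPM. Nkx2-2 had its highest level with Enpp6 and Gpr17 or Bmp4 (121 CPM, against 33.6 in precursors and 16.5 in mature nuclei), and so had Zfp488 (74.2 CPM, against 16.9 and 17.8). Of 16 factors with 50 UMIs, 8 were highest in the members. Sox10 was at 287, 402 and 226 CPM in precursors, members and mature nuclei.

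Of the signalling lists, 3 of 10 Wnt genes were highest in members, near the 29.9% of all genes of that depth. These were Tcf7l2, the receptor Lrp6 (129, 133 and 82.1 CPM in precursors, members and mature nuclei) and beta-catenin, Ctnnb1 (75.5, 82.2 and 81.5 CPM). Lrp6 and Ctnnb1 differed little from the nearer class. Of 8 BMP genes, Bmp4 itself, which the rule used, and the transducer Smad1 (58.2, 67.6 and 55.2 CPM) were highest. Smad7, an inhibitor of BMP and TGF-beta signalling, was at 41.9 CPM in precursors, 79.9, 137 and 301 in the 3 sets of members and 334 in mature nuclei.

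Across all genes the 20 that stood furthest above both neighbouring classes were picked on the smaller of the differences, log2(CPM + 10), as a median over libraries. That smaller difference ran from 2.34 to 3.77. Of 5740 genes, 116 exceeded both classes by 1 and 31 by 2 on that scale. Frmd4a, a FERM-domain scaffold protein at chr2:4017717-4614043 on mouse build mm10, led with 301 CPM in precursors, 537 in nuclei without Enpp6, 11150.1 with Enpp6 and Gpr17 or Bmp4, 11453 with Enpp6 alone and 642 in mature nuclei. It was nearly as low in nuclei without Enpp6 as in precursors, a sharper step than that of Fyn or Bcas1. Frmd4a was detected in 76.7% of nuclei with Enpp6 and Gpr17 or Bmp4 and in 64.3% of those with Enpp6 alone.

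Epb41l2, a link between membrane and cytoskeleton, was at 66.0 CPM in precursors, 961 in members and 88.2 in mature nuclei. Tmem108 was at 232, 2447 and 211 CPM, Ust, a sulfotransferase of matrix sugars, at 277, 1839 and 139, and Arhgap24, a GTPase-activating protein, at 150.0, 864 and 30.2. Tns3, an adaptor of focal adhesions, was at 252, 1339.7 and 156 CPM. The long noncoding RNA CT009510.2, which lies antisense within Pcdh17 and is called 9630013A20Rik in a later annotation, was at 37.7, 1888 and 208 CPM. Of the 20, 8 were matched by symbol to the newly formed list and 1 to the committed list. CT009510.2 was on the newly formed list under its later name and is not among the 8.

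The other stage genes were Eya2, Chn2, Mpzl1, Fam163a, Kif19a, Ptger1, Nhsl2, 9530059O14Rik, Gm13052 and Bcas1os2. Eya2, a transcriptional coactivator, was the only gene of the 20 with its peak in nuclei without Enpp6, at 196 CPM against 7.83 in precursors and 9.29 in mature nuclei. Ptger1, a receptor of prostaglandin E2, was at 0.423 CPM in precursors, 50.6 in members and 2.44 in mature nuclei. Bcas1os2 lies antisense to Bcas1, at chr2:170356361-170380435 within chr2:170346991-170427845, so the split of reads between them is uncertain. The 20 genes, which were picked on these libraries, exceeded both classes in 15 (Bcas1os2) to 18 of the 18 libraries.

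**Figure D3:**
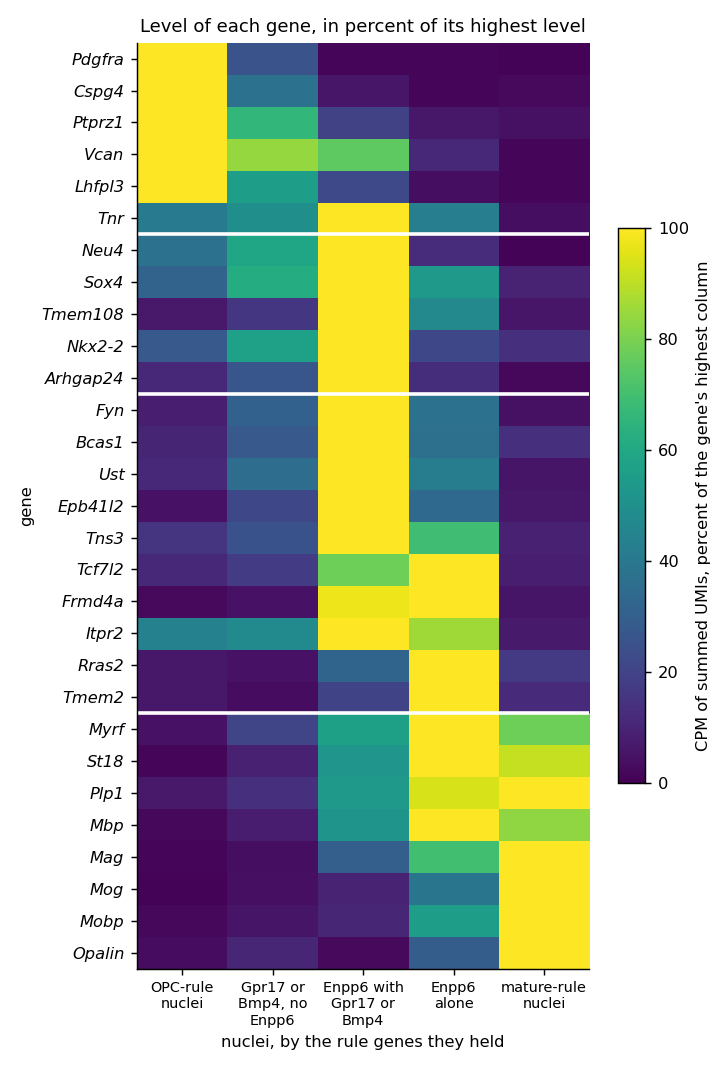
Levels of 29 genes (rows) in precursor nuclei, in members by the rule genes they held, and in mature nuclei (columns), each gene in percent of its highest column. The rows are grouped as precursor, committed, newly formed and maturation genes. Arhgap24, drawn with the committed genes, and Frmd4a, drawn with the newly formed genes, are on no list. They are stage genes picked on these libraries for standing above both neighbouring classes. Precursor genes other than Tnr are highest in the left column, Fyn and Bcas1 peak with Enpp6 and Gpr17 or Bmp4, and most myelin genes are highest in the columns at the right.

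Markers of other cells were scarce in the members. The 7 microglia genes summed to 0.652 UMIs per 10000 (0.0593 to 1.64 over the deeper libraries), against 32.2 in microglia nuclei. The endothelial list summed to 0.232 and the mural and fibroblast list to 0.554. The astrocyte list was at 10.9, against 45.2 in precursors and 9.16 in mature nuclei. The neuronal list was at 128, against 173 in precursors and 118 in mature nuclei. Summed over all libraries, neuronal RNA was therefore present at about the level of the neighbouring stages. In PFC it was lower, with means over mice of 117, 55.6 and 73.5 in GF, SPF and CGF members, against 185, 117 and 125 in precursors. The part of neuronal RNA in the results below was not tested.

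The share of members among nuclei was compared between groups to ask whether the number of these cells goes with the microbiota. In Hip it was 0.381%, 0.274% and 0.382% in the GF mice, 0.429%, 0.325% and 0.343% in the SPF mice and 0.372%, 0.285% and 0.235% in the CGF mice. The groups overlapped, with means of 0.346% ± 0.0624, 0.366% ± 0.0555 and 0.297% ± 0.0694 (SD, n = 3 mice each), and no difference was detected (exact permutation test over the 3 groups, two-sided, p = 0.443). A pairwise exact test of 3 against 3 mice cannot go below p = 0.1. The exact (Clopper-Pearson) 95% intervals of the single libraries, which cover counting error only, reached from 0.141% to 0.612% over the Hip libraries and from 0.00851% to 0.639% over the PFC libraries.

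In PFC the shares were 0.445%, 0.340% and 0.475% in GF, 0.105%, 0.0581% and 0.150% in SPF, and 0.0413%, 0.0827% and 0.0661% in CGF. All 3 GF mice were above all other mice, and the exact permutation test over the groups gave p = 0.0107 (adjusted over both regions, p = 0.0214). The difference was smaller at equal depth. After every nucleus had been thinned to 1000 UMIs and 2 rule-gene UMIs were asked for, the means were 0.245%, 0.139% and 0.0970% in GF, SPF and CGF, and the exact test gave p = 0.0821. Thinning left out 2.38% of GF, 15.4% of SPF and 16.5% of CGF nuclei in PFC. As a share of oligodendroglial nuclei (members, precursors and mature nuclei), members made up 9.12%, 10.5% and 8.66% in PFC (exact permutation p = 0.875) and 5.79%, 5.64% and 5.14% in Hip (exact permutation p = 0.771).

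The Hip share depended on which nuclei were counted. Thinned to 1000 UMIs with 2 rule-gene UMIs, the means were 0.301%, 0.170% and 0.215% in GF, SPF and CGF (exact permutation p = 0.0929). With 3 rule-gene UMIs after thinning they were 0.0977%, 0.0448% and 0.0269% (exact permutation p = 0.0143), from 6 to 10 members in the GF, 3 to 4 in the SPF and 0 to 4 in the CGF libraries. Without the nuclei with Enpp6 alone, a choice made after seeing the data, the shares were 0.332%, 0.262% and 0.336% in GF, 0.143%, 0.271% and 0.184% in SPF and 0.139%, 0.148% and 0.161% in CGF. The GF mice were then above all CGF mice and overlapped with SPF mouse 31, which restates how the nuclei with Enpp6 alone were spread over the groups and is given with no test.

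**Figure D4:**
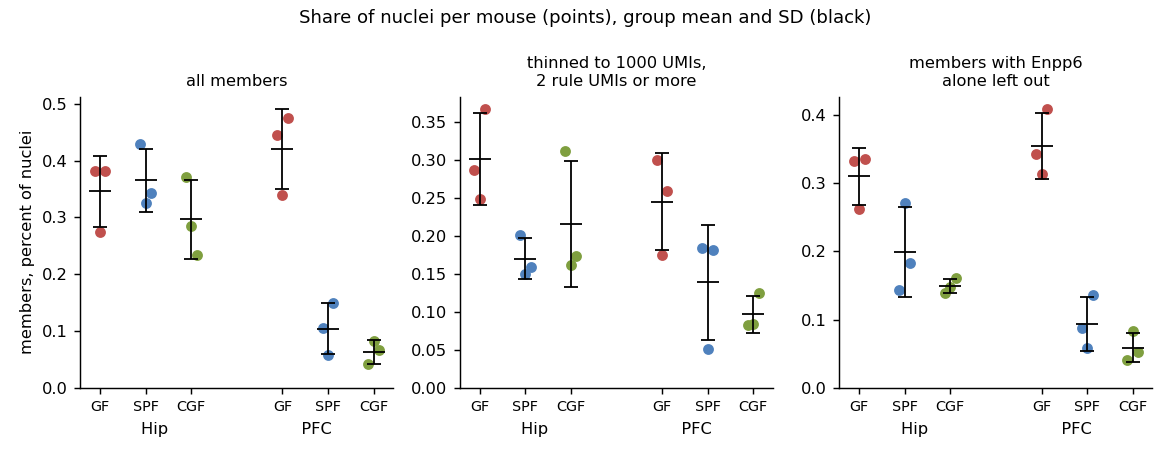
Members in percent of nuclei for each mouse (points), with the group mean ± SD (black, n = 3), in Hip and PFC, for all members, after thinning to 1000 UMIs with 2 rule-gene UMIs, and without nuclei with Enpp6 alone. For all members the Hip groups overlap and the GF PFC points lie above the SPF and CGF points, whereas after thinning the PFC point of GF mouse 6 (0.175%) lies below those of SPF mice 30 (0.184%) and 32 (0.181%).

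The rule genes that Hip members held are given by group as a description. Nuclei with Enpp6 alone made up 12.9%, 4.17% and 12.1% of Hip members in GF mice, 66.7%, 16.7% and 46.4% in SPF mice and 62.5%, 48% and 31.6% in CGF mice. All GF values were below all others, and since the rule genes define these nuclei no test is used. In PFC, with 104 GF, 21 SPF and 14 CGF members, the means over mice went the other way, at 14.8%, 8.59% and 6.67%. In Hip a UMI of Mog or Mag was found in 42.8% ± 16.1, 72.5% ± 9.01 and 63.9% ± 11.2 of GF, SPF and CGF members (SD, n = 3, exact permutation p = 0.0607, adjusted over 6 measures p = 0.193). In PFC the means were 44.8%, 36.9% and 46.7% (exact permutation p = 0.658). The median maturation index of Hip members was 22.0, 13.3 and 24.4 in the GF mice, 66.1, 25.8 and 37.4 in the SPF mice and 77.5, 34.1 and 19.3 in the CGF mice. The GF values were below all SPF values and overlapped with CGF mouse 19. Over the GF, SPF and CGF members of PFC the median index was 25.4, 17.5 and 12.7. The precursor nuclei of Hip had medians of 2.68 to 5 over all mice, and the mature nuclei 95.5 to 96.7 in GF mice, whereas SPF mice had 90.3 to 91.1 and CGF mice 90.7 to 92.3.

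The rule genes themselves were unevenly distributed. Gpr17 in Hip members stood at 316, 551 and 438 CPM in GF mice, 82.8, 226 and 121 in SPF mice and 91.8, 95.04 and 207 in CGF mice. Enpp6 stood at 530.3, 377 and 852 CPM in GF, 956, 585 and 817 in SPF and 684, 726 and 817 in CGF. Bmp4 was at 262, 251 and 469 CPM in GF, 105, 304 and 227 in SPF and 66.8, 121 and 329 in CGF. Gpr17 was higher in every GF mouse than in every other mouse, and the groups overlapped for Enpp6 and Bmp4. In PFC members Gpr17 stood at 439, 411 and 340.1 CPM in GF mice, with SPF mice at 785, 375 and 724 and CGF mice at 1719, 883 and 1014, so that GF mice were below CGF mice and overlapped with SPF mouse 31. Since the rule asks for these genes, no test of them is used here.

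Gene by gene, the member UMIs of each mouse were summed and compared with edgeR's quasi-likelihood test over the 9 Hip libraries (Benjamini-Hochberg adjustment over all tested genes). In GF against SPF mice 33 of 3089 genes passed an adjusted p of 0.05 (1.07%), 25 higher and 8 lower in GF. All 33 had groups that did not overlap, as had 20.3% of all tested genes. The count rested on single libraries, with 0 genes without SPF mouse 30, 2 without GF mouse 6, 3 without GF mouse 7 or SPF mouse 31, 17 without SPF mouse 32, 53 without CGF mouse 17 and 65 without GF mouse 5.

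Among the genes higher in GF were a protease, a receptor and a secreted protein. Prss48, a serine protease, was at 250.2, 106 and 141 CPM in GF mice and 15.1, 31.2 and 15.1 in SPF mice. P2ry14, a receptor for UDP-sugars, was at 220.5, 145 and 148 CPM in GF and 30.1, 31.2 and 15.1 in SPF. C1ql3, a secreted synaptic protein of the C1q family, was at 274, 213 and 141 CPM in GF and 45.2, 46.8 and 60.5 in SPF. In each of these the lowest GF mouse was more than 2 times the highest SPF mouse. The member sums of the SPF Hip libraries held 128117 to 132789 UMIs, so SPF levels of this size, here and below, rest on few counted molecules. The log2 differences were 3.05 for Prss48 (SE 0.50, edgeR adjusted p = 0.0155), 2.77 for P2ry14 (SE 0.48, edgeR adjusted p = 0.0161) and 2.08 for C1ql3 (SE 0.37, edgeR adjusted p = 0.0169).

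Lims2, an adaptor of focal adhesions, was at 137, 193 and 156 CPM in GF and 22.6, 23.4 and 68.1 in SPF (log2 difference 2.09, SE 0.42, edgeR adjusted p = 0.0343). Gpr17 lies inside Lims2 on the opposite strand, and Gpr17 was higher in the same mice, so the count of Lims2 is uncertain where reads were not split by strand. Mid1, a ubiquitin ligase on microtubules, was at 203, 155 and 102 CPM in GF, 22.6, 23.4 and 37.8 in SPF and 175, 363 and 293 in CGF. It was the lowest in SPF mice, by a log2 difference of 2.48 from GF (SE 0.45, edgeR adjusted p = 0.0209) and 3.29 from CGF (SE 0.43, edgeR adjusted p = 0.00466). Mid1 was the only one of 3089 genes called between CGF and SPF (0.0324%), with 0 called without SPF mouse 30 or without SPF mouse 31. For Mid1 the difference between CGF and SPF was also called in precursor nuclei (2.46) and mature nuclei (3.20).

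With genes under clone names left aside, among them the called Gm42418 (-2.48), the 5 genes furthest below SPF in GF mice had their highest levels, by stage, in mature nuclei or in nuclei with Enpp6 alone. Prr5l, a component of the mTORC2 pathway, was at 143, 87.0 and 46.9 CPM in GF, 934, 179.5 and 839.5 in SPF and 968, 449 and 305 in CGF. Car2, the carbonic anhydrase of oligodendrocytes, was at 59.6, 38.7 and 46.9 CPM in GF, 264, 133 and 219 in SPF and 184, 86.4 and 73.1 in CGF. Map7, a microtubule-associated protein, was at 346, 319 and 234 CPM in GF and 971, 679 and 862 in SPF. Rffl, a ubiquitin ligase, and Ypel2 did likewise. Every SPF mouse was above every GF mouse in these 5 genes. The log2 differences of GF from SPF were -2.72 for Prr5l (SE 0.60, edgeR adjusted p = 0.0414), -1.98 for Car2 (SE 0.41, edgeR adjusted p = 0.0393), -1.43 for Map7 (SE 0.30, edgeR adjusted p = 0.0393), -1.42 for Rffl and -1.34 for Ypel2.

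Prr5l stood at 63.6 CPM with Enpp6 and Gpr17 or Bmp4, 1132 with Enpp6 alone and 1629.5 in mature nuclei, and Map7 at 305, 1203 and 1367. In mature nuclei GF and SPF mice differed by a log2 of -0.27 in Prr5l, -0.04 in Car2 and -0.22 in Rffl, none of them called. These 3 were not typical, as 26 of the 32 Hip calls tested in mature nuclei were called there in the same direction. With the nuclei with Enpp6 alone left out (chosen after seeing the data), the difference in Map7 was -0.63 and that in Rffl -0.95, and Prr5l, Car2 and Ypel2 fell below the filter on low counts. Since the rule genes define this split, and these genes are high in the nuclei left out, the values are a description with no test. A lower level per nucleus and a smaller part of nuclei with Enpp6 alone among the members cannot be told apart in the sums. For the genes higher in GF the differences without the nuclei with Enpp6 alone were 2.94 for Prss48, 2.62 for Mid1, 1.89 for C1ql3, 2.40 for P2ry14 and 1.91 for Lims2, again with no test.

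**Figure D5:**
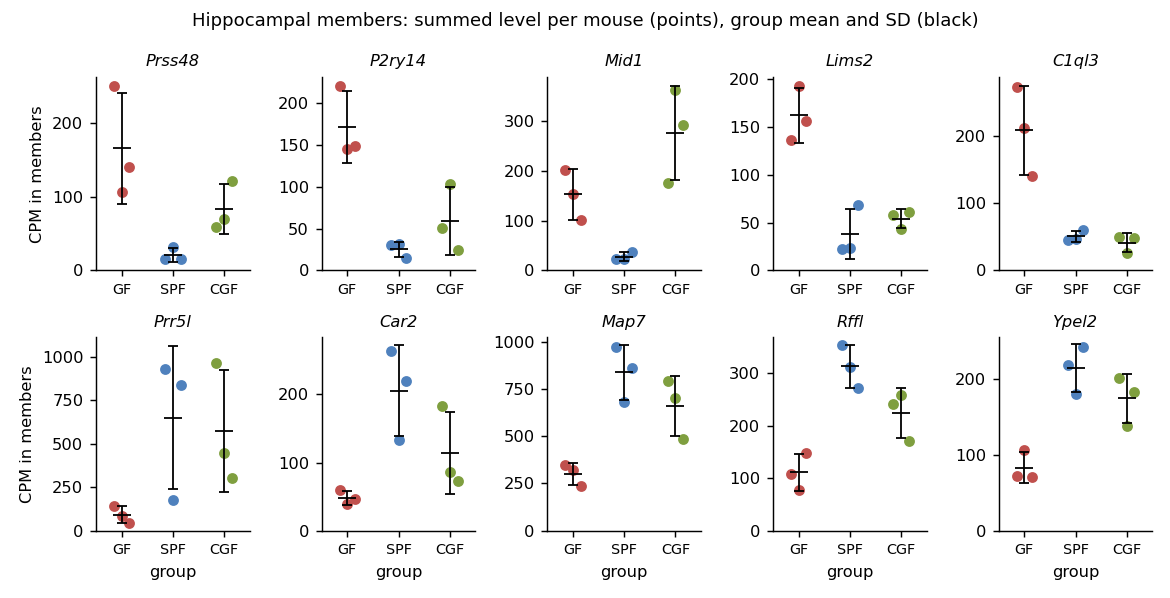
Levels (CPM) in the Hip members of each mouse for the 5 called genes furthest above and the 5 furthest below SPF in GF mice, clone and Rik names left aside. Prss48, P2ry14, Mid1, Lims2 and C1ql3 are higher in each GF mouse than in each SPF mouse, and Prr5l, Car2, Map7, Rffl and Ypel2 lower, while in CGF mice Mid1 is high.

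In GF against CGF mice, a comparison that shares the GF mice with the one above, 51 of 3089 genes passed (1.65%), 37 higher and 14 lower in GF. Without CGF mouse 17 the count was 1, without CGF mouse 18 it was 7, without GF mouse 7 it was 8, without GF mouse 6 it was 12, and without GF mouse 5 it was 79. The count includes Gpr17, which the rule used and from which nothing is read here. Cd81, a tetraspanin of the cell surface, was at 274, 377 and 484 CPM in GF and 50.1, 86.4 and 73.1 in CGF, a log2 difference of 2.44 (edgeR adjusted p = 0.0113). Srp14, of the signal recognition particle, was at 83.4, 184 and 156 CPM in GF and 8.34, 34.6 and 12.2 in CGF (2.82, edgeR adjusted p = 0.0254). Cpt1c, a carnitine palmitoyltransferase of the brain, was at 149, 126 and 117 CPM in GF and 25.03, 25.9 and 12.2 in CGF (2.54, edgeR adjusted p = 0.0169). The groups were well apart in each, and the proteasome subunit Psmd7 (2.43) and Sncb, beta-synuclein (2.37), completed the 5 largest with clone and Rik names left aside. Of all tested genes 21.9% had groups that did not overlap, and these 5 were picked among such genes. The CGF member sums held 82035 to 119846 UMIs, so the low CGF levels of Srp14 and Cpt1c rest on few molecules.

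Sox10, the lineage transcription factor, was called at a log2 difference of 1.23 (SE 0.29, edgeR adjusted p = 0.0467), a call that was lost with nuclei thinned to 1000 UMIs (0.73, edgeR adjusted p = 0.248). Against SPF mice it was at 1.16 (edgeR adjusted p = 0.0643) and not called, but it was called with nuclei thinned (1.48, edgeR adjusted p = 0.0345) and with both regions summed (1.13, edgeR adjusted p = 0.0230). Without the nuclei with Enpp6 alone, a choice made after seeing the data, Sox10 was at 1.39, given with no test. In GF against CGF mice edgeR called no other of 5 tested lineage genes or of 12 tested differentiation factors, and DESeq2 called Sox8 besides. Against SPF mice, with all members, edgeR and DESeq2 called 0 of both lists, with 3 lineage genes and 4 differentiation factors at an unadjusted p under 0.05. With clone names left aside, the 5 genes furthest below CGF were Npsr1, the neuropeptide S receptor, at -3.29 (edgeR adjusted p = 0.0480), Prr5l at -2.59 (edgeR adjusted p = 0.0454), the sulfotransferase Chst8 at -2.49 (edgeR adjusted p = 0.0248), the kinase Rps6ka5 at -2.37 (edgeR adjusted p = 0.0418) and Cntn2, an adhesion molecule of myelinated axons, at -2.36 (edgeR adjusted p = 0.0480). Npsr1 stood at 17.9, 19.3 and 31.3 CPM in GF and 501, 77.8 and 97.5 in CGF, and Chst8 at 29.8, 38.7 and 39.1 in GF and 134, 346 and 122 in CGF. These genes too were highest in nuclei with Enpp6 alone or in mature nuclei, Npsr1 with 15.9 CPM with Enpp6 and Gpr17 or Bmp4, 294 with Enpp6 alone and 511 in mature nuclei.

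The stage lists were read against the 1.07% and 1.65% of all tested genes called against SPF and CGF. Of 16 tested newly formed genes edgeR called 0 in either comparison, with 2 against SPF and 1 against CGF at an unadjusted p under 0.05, and DESeq2 called 0. Their median log2 difference was -0.07 against SPF and -0.12 against CGF, where all tested genes had -0.02 and -0.05. Of 12 precursor genes edgeR and DESeq2 called 0, and 1 had an unadjusted p under 0.05 in each comparison. Of 6 committed genes both called 0 as well, with 3 against SPF and 1 against CGF at an unadjusted p under 0.05. Their median log2 difference was 0.56 against SPF and 0.66 against CGF, with 5 of the 6 higher in GF in each. Of all 3089 tested genes 474 against SPF and 499 against CGF had an unadjusted p under 0.05. Among 16 myelin and mature genes edgeR called 1 against SPF, Car2, where 6 had an unadjusted p under 0.05 and DESeq2 called 2, and 0 against CGF, where 3 had an unadjusted p under 0.05 and DESeq2 called 1, Grm3. Their median log2 difference was -0.30 against SPF and -0.31 against CGF. Of these 16 genes 2 were higher in GF than in SPF and 5 were higher in GF than in CGF. The newly formed list summed to 109.8, 135 and 187 UMIs per 10000 in GF, 134, 150.0 and 139.9 in SPF and 75.8, 187 and 177 in CGF members, with groups that overlapped.

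Most Hip calls were also made in other cell types. Of the 33 genes called against SPF, 31 were also tested in precursor nuclei, where 21 were called in the same direction (8.71% of all genes were called there), 32 in mature nuclei with 26 (28.7%), and 29 in microglia nuclei with 21 (14.6%). Of the 51 called against CGF, 36 of 46 were called in the same direction in precursor nuclei (13.3%), 43 of 51 in mature nuclei (31.6%) and 36 of 44 in microglia nuclei (21.4%). Lists that mark RNA make-up and not cell type also stood apart between the groups. In Hip members 4 genes that collect ribosomal RNA reads summed to 4.11 to 5.86 UMIs per 10000 in GF mice, whereas SPF mice had 11.1 to 34.7 and CGF mice 18.4 to 23.2. A list of 8 short abundant transcripts, among them the called Fth1 (1.52 against SPF), summed to 41.4 to 62.2 in GF mice, above the 18.5 to 34.7 of SPF mice and the 13.9 to 25.7 of CGF mice. A list of 6 abundant nuclear transcripts summed to 619.7 to 725 in GF mice, above the 345 to 397 of SPF mice and the 329 to 448 of CGF mice. Only 2 of its 6 genes were higher in GF, both against SPF (median log2 difference -0.33) and against CGF (-0.31). Mitochondrial UMIs over all nuclei made up 0.645% to 1.10% in GF Hip libraries and 0.0770% to 0.471% in the other Hip libraries, and in PFC 0.359% to 0.594% in GF and 1.28% to 3.22% in the others. The part of these shifts in the calls was not tested.

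The test that asks whether a difference is particular to the members set their GF minus SPF difference against that of precursor nuclei of the same libraries. In Hip it called 1 of 5601 genes (0.0179%), Trpm3, a cation channel, with a log2 difference of differences of 2.71 (SE 0.46, edgeR adjusted p = 0.0459). Trpm3 stood at 453, 1324 and 1055 CPM in GF members and 105, 437 and 461 in SPF members, so that GF mouse 5 lay below SPF mouse 32. Without GF mouse 6 or 7, SPF mouse 30 or 32, or CGF mouse 18 the test called 0 genes, without SPF mouse 31 it called 2 and without GF mouse 5 it called 5. Without the replicate block Trpm3 had an edgeR adjusted p of 0.580. Ttr (transthyretin) and the serotonin receptor Htr2c, genes of the choroid plexus, were at 4243 and 1054 CPM in the members of GF mouse 6, at 0 and 77.5 in GF mouse 5 and at 664 and 15.6 in GF mouse 7. Their part in the difference of Trpm3 was not tested. For Prr5l, Car2 and Mid1 the differences of differences were -2.19, -0.83 and 0.95, none of them called (edgeR adjusted p = 0.868, 0.952 and 0.914). In PFC 0 of 1010 genes were called by this test with edgeR (0%), and 100 had an unadjusted p under 0.05.

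The PFC comparison rested on 104 GF, 21 SPF and 14 CGF members, and only 152 genes were deep enough to test. In GF against SPF mice 58 passed (38.2%), 32 higher and 26 lower, and in GF against CGF mice 41 (27%), 15 higher and 26 lower. With only the 6 mice compared in the fit, more genes were tested and smaller shares passed, 169 of 1222 (13.8%) against SPF and 78 of 1237 (6.31%) against CGF. The count of 58 against SPF was 92 without CGF mouse 17 and 89 without CGF mouse 19. Between CGF and SPF 0 passed by edgeR (0%) and 0 by DESeq2, with 13 at an unadjusted edgeR p under 0.05, and 6 passed without CGF mouse 18. Gm42418, Cmss1, Camk1d and Lars2 had the largest differences, of which Gm42418 (-6.90), Cmss1 and Lars2 belong to the list of genes that collect ribosomal RNA reads. Cmss1 was at 125, 68.5 and 122 CPM in GF, 4709, 3000 and 6457 in SPF and 7366, 10154 and 5295 in CGF, a log2 difference from SPF of -5.36, with -5.00 in precursor, -4.99 in mature and -5.33 in microglia nuclei. Camk1d (-4.89) and Lars2 (-4.74) behaved alike. The summed list took 3.62 to 5.53 UMIs per 10000 in GF members and 320 to 652 in the members of the other groups, and the libraries of these groups were the shallow ones.

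The noncoding RNA CT009510.2, one of the stage genes, was higher in GF in PFC. It stood at 2141, 2534 and 3639.8 CPM in GF, 112, 375 and 302 in SPF and 491, 88.3 and 0 in CGF, with log2 differences of 3.48 and 4.41 (edgeR adjusted p = 5.19e-05 and 6.42e-05). The member sums held 8000 to 16571 UMIs in SPF and 4073 to 11326 in CGF libraries of PFC, so these low levels rest on few molecules. CT009510.2 was written on the newly formed list under its later name, so the counts of that list leave it out. Of 10 other tested newly formed genes 1 was called against SPF, Tns3 at -1.04 (edgeR adjusted p = 0.0181), the direction opposite to CT009510.2. Of these 10 DESeq2 called 3, and edgeR called 38.2% of all tested genes. Of 6 tested precursor genes 1 was called, Vcan at -2.14 (edgeR adjusted p = 0.000400). Vcan was lower in GF precursor nuclei too, at -1.37. Of 6 tested neuronal genes 3 were called higher in GF than in SPF, Celf2 at 1.62, Kcnip4 at 1.92 and Nrg3 at 1.86 by edgeR, where 32 of all 152 tested genes were called higher. All 6 had a log2 difference above 0, with a median of 1.46 against 0.05 over all tested genes. The neuronal list of 10 genes summed to 125, 122 and 103 UMIs per 10000 in GF members of PFC, above the 42.6, 46.3 and 77.8 of SPF mice and the 98.2, 54.7 and 67.6 of CGF mice. The GF mice did not overlap with the others, while SPF and CGF mice overlapped. Its part in the PFC differences was not tested. Beside this higher neuronal level, the largest rises in GF after CT009510.2 were those of Kcnq5 at 2.85, Mdga2 at 2.71, Unc5c at 2.69 and Erbb4 at 2.67 against SPF, and Tmeff2 at 2.59 and Nrg1 at 2.41 against CGF (all called by edgeR). Chd3 (-2.80) and Son (-2.79) were lower than in SPF.

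Hip and PFC were compared within mice. Members were 0.336% of Hip and 0.196% of PFC nuclei, a mean difference of 0.140 points (SD 0.170, higher in Hip in 6 of 9 mice, exact sign-flip permutation test, p = 0.0430). It was -0.0741 points in GF mice, whose PFC libraries were the deeper ones (median 4678 to 5905 UMIs in Hip and 6795.5 to 7426.5 in PFC), 0.261 in SPF and 0.234 in CGF mice. Thinned to 1000 UMIs with 2 rule-gene UMIs the difference was 0.0687 points (7 of 9 mice, exact sign-flip permutation test, p = 0.0234), and with 3 rule-gene UMIs, a setting added after seeing the data, -0.00452 points (p = 0.652 by the same exact test). As a share of oligodendroglial nuclei the order was the other way, 5.52% in Hip and 9.42% in PFC (lower in Hip in 8 of 9 mice, exact sign-flip permutation test, p = 0.00781).

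The genes of the members were compared between regions in GF mice, where the median member held 3127.5 to 3668 UMIs in Hip and 3756 to 4189 in PFC. Of 4376 genes 7 passed (0.16%), 5 higher in Hip, and 32 passed with the mouse as a block, which pairs both regions of each animal. The study's own library list has the sizes of the Hip libraries of GF mice 6 and 7 the other way round, so it is uncertain which of them belongs with which PFC library. The count was 15 to 19 with 1 of the GF mice left out, and DESeq2 called 0. A fit of only the 6 GF libraries called 1 gene, Cdh18, and none of the genes higher in Hip. Nrp1, a receptor of semaphorins and VEGF, was at 167, 96.7 and 62.5 CPM in Hip and 0, 8.56 and 10.6 in PFC (log2 difference 3.90, edgeR adjusted p = 0.00595). All members together held 122 Nrp1 UMIs, and its PFC level rests on few molecules. Epha6, an ephrin receptor, was at 935, 242 and 305 CPM in Hip and 77.1, 197 and 47.8 in PFC (2.32, edgeR adjusted p = 0.0165). Cdh9, a cadherin, and Dab1, the adaptor of Reelin signalling, were higher in Hip as well (2.98 and 1.91). The groups of the called genes did not overlap except for Ttr, which was 0 in GF mouse 5 in both regions. Of all 4376 tested genes 11.4% had groups that did not overlap, and the other genes named here were picked for this.

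Cdh18, another cadherin, was at 35.7, 48.3 and 23.4 CPM in Hip and 261, 137 and 181 in PFC (-2.41, edgeR adjusted p = 0.0165). Bnc2, a zinc finger protein, was at 0, 0 and 54.7 CPM in Hip and 59.3, 531 and 117 in PFC (-3.53, edgeR adjusted p = 0.0224). Bnc2 stood at 407 CPM in members with Gpr17 or Bmp4 without Enpp6, which held 112 of its 117 UMIs. It was at 4.24 CPM with Enpp6 and Gpr17 or Bmp4, 2.37 with Enpp6 alone, 2.75 in precursors and 3.42 in mature nuclei. Of the members of GF mouse 6 in PFC 46.2% were without Enpp6. The mural and fibroblast list summed to 1.09 UMIs per 10000 in members without Enpp6, 0.413 with Enpp6 and Gpr17 or Bmp4, and 0.908 in precursors. The part of other cells in the level of Bnc2 was not tested. Of 17 newly formed, 7 committed and 14 precursor genes edgeR and DESeq2 called 0 between regions in GF mice, with 0 at an unadjusted p under 0.05. Of 19 myelin and mature genes both called 0, with 3 at an unadjusted p under 0.05. In SPF mice 242 genes (5.53%) and in CGF mice 296 (6.76%) passed the region test, with medians over all genes of 0.60 and 0.79 on the log2 scale, where the PFC libraries were the shallow ones. The difference of GF from SPF members was not alike in Hip and PFC for 100 of 4376 genes (2.29%) by edgeR's interaction test. Those with the lowest adjusted p were Cmss1 (4.06), mt-Co3 (3.63), mt-Co1 (3.92) and Gm42418 (3.97), genes of RNA make-up. The SPF PFC libraries in this fit held 4 to 11 members, and the mouse was not a block. The part of depth and RNA make-up in the count was not tested.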

How the data were processed

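From 9 mice, 1 hippocampal (Hip) and 1 prefrontal (PFC) droplet library each, 18 in all, held RNA of single nuclei. Per the labels, the authors processed the reads with CASAVA 1.8 and Cell Ranger against mm10, and deposited raw UMI counts per gene and nucleus, which are not normalized. The libraries held 20336250 to 71463928 UMIs and 5710 to 9055 nuclei with at least 200 genes and at most 10% mitochondrial UMIs. All columns belonged to these samples (0 others).

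Groups were taken from the sample labels. The members, gene lists and tests were chosen with earlier results of these data known. The 22 gene lists were matched by symbol. CT009510.2, written on the newly formed list as 9630013A20Rik, is therefore not counted in that list. Tmem2 and CT009510.2 stand for genes known under other names in later annotations. Counts of the members were summed per library, and levels are CPM of these sums. Group and region differences were tested with edgeR 4.0.16 (R 4.3.3, filterByExpr, TMM, quasi-likelihood test, Benjamini-Hochberg adjusted p of 0.05), with DESeq2 1.42.0 as an alternative, and shares with exact permutation tests over mice (Python 3.11.15, scipy 1.17.1). The steps were tested on simulated data. P-values measure the spread between mice of a group, with 3 mice each.

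Genes named were members of the lists, the 20 stage genes, the 5 largest rises and 5 largest falls per comparison among called genes whose groups did not overlap (without mitochondrial genes and clone or Rik names). Trpm3 and Htr2c were named after their values were seen. Doublets were scored per library with scanpy 1.11.5 (simulated doublets, 30 components, 50 neighbours), and the top 0.8% of nuclei per 1000 nuclei was marked as likely doublets. These were kept, and leaving them out was an alternative. Other alternatives changed the rule minimum, the depth (nuclei thinned to 1000 UMIs), the filter, the normalization, the samples and the block. Both regions came from the same mouse by the labels, which pairs them. The study's own library list has the Hip libraries of GF mice 6 and 7 the other way round, which leaves group values as they are but makes the pairing of these mice uncertain. The deviations of the 2 regions of a mouse from their group means correlated at -0.0358 to 0.130.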

Additional observations from a re-analysis of the deposited data

Results flagged for a closer look

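The difference in the share of members between Hip and PFC was not alike in the 3 groups. GF mice had -0.0741 points, against 0.261 for SPF and 0.234 for CGF mice, and the exact permutation test of the difference between groups gave p = 0.0286. Thinned to 1000 UMIs with 2 rule-gene UMIs, the same exact permutation test gave p = 0.404. The PFC libraries of SPF and CGF mice were the shallow ones.

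The difference between GF and SPF members was itself compared between Hip and PFC in a fit of all 18 libraries. By edgeR 100 of 4376 genes passed (2.29%), 30 with a higher and 70 with a lower difference in Hip, where the median over all tested genes was -0.61 on the log2 scale. Cmss1 and Gm42418, which collect ribosomal RNA reads, and mitochondrial genes had the lowest adjusted p. The SPF PFC libraries were shallow and the mouse was not a block in this fit.

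Trpm3 was the only gene called when the GF minus SPF difference in Hip members was set against that in precursor nuclei, with a log2 difference of differences of 2.71 (edgeR adjusted p = 0.0459). Without the replicate block its edgeR adjusted p was 0.580, and 0 genes were called without GF mouse 6 or 7, SPF mouse 30 or 32, or CGF mouse 18.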

How the results depend on the processing

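The difference of GF from SPF in the share of nuclei in Hip (-0.0197 points) changed its sign with 2 rule-gene UMIs (0.0280), with 5 (0.0409), thinned with 3 (0.0529) or 2 UMIs (0.131), among nuclei with Olig1, Olig2 or Sox10 (0.0552) and without Enpp6 alone (0.111, added after seeing the data). With 5 rule-gene UMIs the means were 0.224%, 0.183% and 0.106% in GF, SPF and CGF. The exact permutation test then gave p = 0.0321 over the 3 groups and p = 0.4 for GF against SPF. With all members the difference ran from -0.0400 without SPF mouse 31 to 0.0163 without GF mouse 6, and was 0.0119 without SPF mouse 30. In PFC (0.316) it was 0.0348 and 0.106 after thinning with 3 and 2 UMIs, where the test was no longer passed, 0.534 with 2 rule-gene UMIs and 0.478 with no condition on other cell types' genes, where it was, and 0.288 to 0.355 with 1 mouse left out. As a share of oligodendroglial nuclei it ran in Hip (0.154) from -0.640 without GF mouse 7 to 1.13 without GF mouse 6, was -0.0307 without GF mouse 5, and was 1.18 and 2.36 thinned with 3 and 2 UMIs. In PFC (-1.37) it was 3.45 with 5 rule-gene UMIs, -4.29 with 2, and -8.20 and -4.95 thinned with 3 and 2 UMIs, and ran from -3.71 without SPF mouse 31 to 1.60 without SPF mouse 32. Hip minus PFC (0.140) was -0.00452 thinned with 3 UMIs and 0.117 (without CGF mouse 17) to 0.169 (without GF mouse 7), with exact permutation p up to 0.0859. These last alternatives were added after seeing the data. The cause of these changes was not tested.

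Counts of called genes are given in the order GF against SPF, GF against CGF and CGF against SPF. In Hip (33, 51 and 1) they were 125, 145 and 4 with no filter on low counts and 17, 20 and 0 with nuclei thinned. GF against SPF and GF against CGF gave 209 and 197 with 2 rule-gene UMIs, 15 and 13 with 5, and 87 and 86 with both regions summed per mouse. GF against SPF gave 55 without likely doublets and 59 with only the 6 mice compared. With 1 mouse left out the ranges were 0 to 65, 1 to 79 and 0 to 1. In PFC (58, 41 and 0) they were 267, 236 and 1 with no filter. GF against SPF and GF against CGF gave 28 and 22 thinned, 124 and 118 with 2 rule-gene UMIs, 12 and 11 with 5, and 169 and 78 with only the 6 mice compared. CGF against SPF gave 3 with 5 rule-gene UMIs. With 1 mouse left out the ranges were 43 to 92, 30 to 51 and 0 to 6. DESeq2 gave 37, 44 and 1 in Hip and 61, 41 and 0 in PFC.

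The mouse number pairs sums of 1 mouse. Members against precursors (1 gene in Hip, 0 in PFC) gave 0 and 2 without the replicate block, 4 and 17 against mature nuclei, and 0 to 5 and 0 to 4 with 1 mouse left out. Hip against PFC in GF mice (7) gave 32 with the replicate block, 1 in a fit of only the 6 GF libraries, 33 with no filter, 0 by DESeq2 and 15 to 19 with 1 mouse left out. The share of members, Hip minus PFC, kept its call without the replicate block, and so did the 6 genes named between regions with it. The block was not run for the other comparisons that hold both regions. Of 656 values of the 47 named results under alternatives, 510 kept their direction and their side of the threshold, 146 kept the direction and lost the threshold, and 0 changed sign. The named results were picked as called genes whose groups did not overlap, so a kept direction was likely from the start. In PFC 152 genes could be tested, and SPF and CGF libraries held 3 to 11 members each.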
